A study of Mus musculus with 3 samples.

Results

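The cofilin pathway genes are the actin-severing proteins destrin and cofilin together with the enzymes and partners that set their activity. The 10 members were listed by name as Dstn, Cfl1, Cfl2, Limk1, Limk2, Ssh1, Ssh2, Ssh3, Wdr1 and Cap1, and every region to which the authors had assigned a member was taken. This gave 23 of 31850 merged regions, and 9 of the 10 members among the 16697 genes with an interval. The signal is chromatin immunoprecipitation followed by sequencing (ChIP-seq) with an antibody to serum response factor (SRF), a transcription factor that binds DNA elements called CArG boxes.

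Whole corneas came from mice of a mixed background at about 8 weeks of age that had received no treatment. The library titled mutant is from Dstn-corn1 mutants, whose destrin is not functional, and the library titled wildtype carries no further genotype in its title. The growth protocol names the mutant for all 3 libraries, so the genotypes rest on the titles. The remaining library, an input without antibody, was not used here. Each genotype had 1 library, and the number of mice or corneas behind it was not given in the sources used here. Differences between the libraries were thus not checked by replication and were not tested. In whole tissue, fewer cells with a bound site and less binding per cell cannot be told apart.

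Actin filaments grow and shrink continually. Destrin (also called ADF) and the cofilins bind filaments, sever them and speed their disassembly. LIM kinases switch them off by phosphorylation, the slingshot phosphatases switch them back on, and Wdr1 and Cap1 help to take filaments apart and to recycle monomers. SRF is linked to this cycle because its cofactor MRTF is held inactive by actin monomers, and many genes of the actin cytoskeleton are SRF targets. Loss of destrin in the cornea is known for an accumulation of filamentous actin and a thickened epithelium.

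Values are peak heights, the deposited signal at each region's maximum, given as mutant then wildtype. The authors' intervals are the stretches called as bound in a library, and the lowest called height was 9 in each. Ratios are log2 of (mutant height + 1) over (wildtype height + 1), a form that makes differences between low heights look smaller than they are. The read depth behind the heights is unknown. Over all regions with signal in both libraries the median ratio was -1.10, so a member near that value behaved like the middle of the series. As ChIP signal does not measure expression, marker genes cannot check the tissue. Of 6 cornea markers looked at (Krt12, Krt5, Pax6, Aldh3a1, Kera and Tkt), 3 had an interval in mutant and 4 in wildtype. Of 26216 reference genes, 45.1% had one in mutant and 59.9% in wildtype.

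An interval in wildtype was assigned to 9 of 10 members, against 59.9% of 26216 reference genes. In mutant the count was 8 of 10, against 45.1%. The member that differed was Dstn, and Cfl2 had no region in either library. Within 1 kb of the gene start, 6 members had an interval in wildtype (28.8% of reference genes) and 4 in mutant (18.8%). The 4 were Limk1, Limk2, Wdr1 and Cap1, and wildtype added Dstn and Cfl1. No region lay within 1 kb of the assigned start of any of the 3 slingshot genes.

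**Figure D1:**
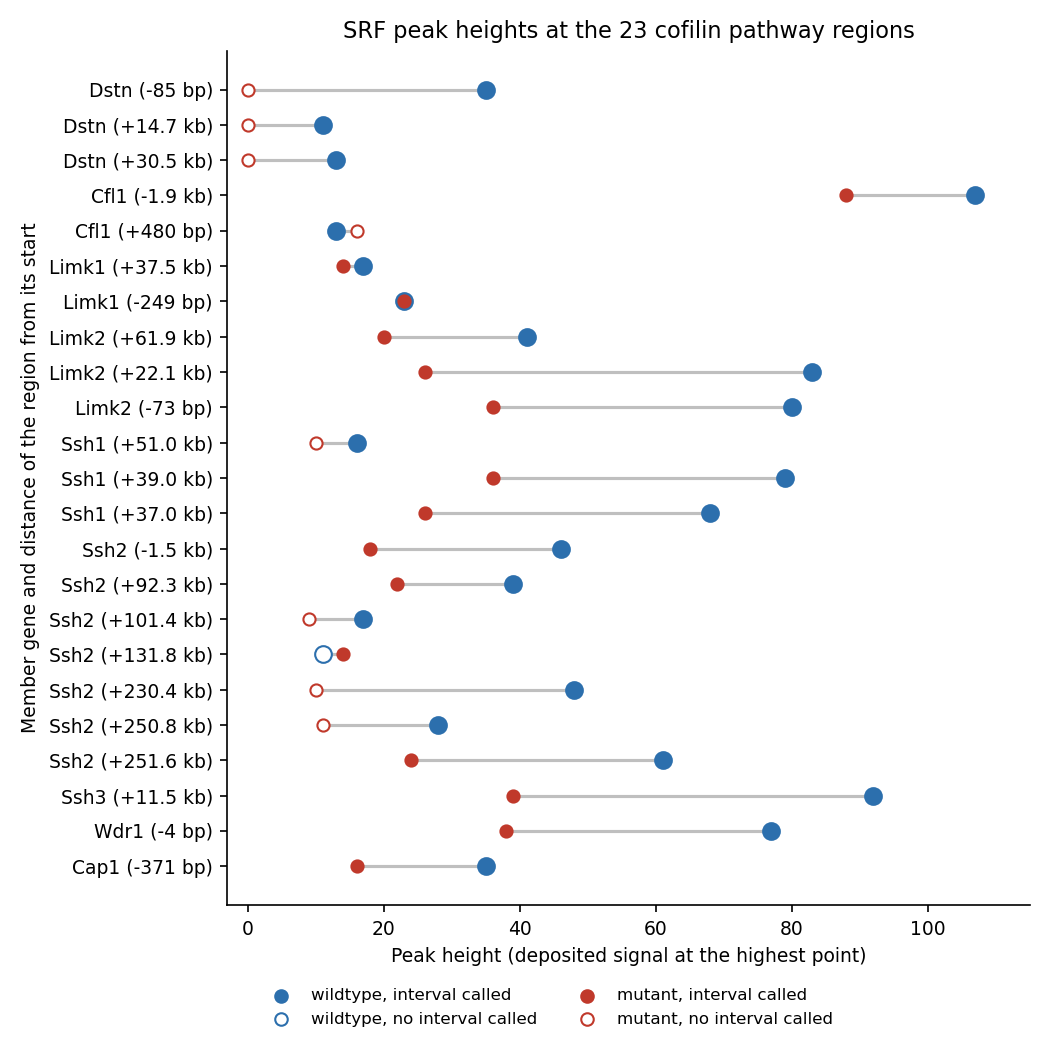
Peak height (x axis, deposited signal) in mutant (red) and wildtype (blue) at each of the 23 member regions, labelled by gene and distance from its start; open circles mark a library without a called interval. The 3 Dstn regions are at 0 in mutant, Limk1 is at 23 in both libraries at its start, and the 2 regions higher in mutant are at Cfl1 and Ssh2.

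Dstn, the mutated gene, lies on chromosome 2 (mm10, 143915331 to 143943324, plus strand). All 3 of its regions were listed at 0 in mutant, with 35 in wildtype at the start, 11 inside the gene and 13 past its end. The one past the end is also assigned to Rrbp1. In the whole series 38 regions (0.119%) were listed at 0 in mutant. The start region held a CpG island, and its height was at the 62.3rd percentile of all wildtype heights. The other two were among the lowest, at percentiles 2.41 and 6.38. Among 87 other start regions with the same wildtype height of 35, mutant heights ran from 4 to 30 with a median of 16. The zero at Dstn was thus below every start region of equal wildtype height. Missing or unmappable DNA in the mutant and lost SRF binding cannot be told apart from these values.

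The wildtype summit of the start region was at position 143915232. The RefSeq sequence (GRCm38.p6) of the 250 bases before the start, chr2:143915081-143915330 on the plus strand, is shown because the summit falls inside it. Capitals mark a CArG-like stretch, the CArG consensus with 1 base outside it, here inside the run of A and T.
Dstn: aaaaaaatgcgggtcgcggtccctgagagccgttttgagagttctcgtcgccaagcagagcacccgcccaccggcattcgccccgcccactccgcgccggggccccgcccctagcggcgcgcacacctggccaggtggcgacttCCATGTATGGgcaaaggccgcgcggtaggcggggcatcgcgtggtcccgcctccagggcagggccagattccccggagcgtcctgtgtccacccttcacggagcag
The stretch began 106 bases before the start and spanned 143915225 to 143915234, so the wildtype summit lay inside it. Of all summits, 99.1% were at multiples of 16 bp, so distances of a few bases are not resolved. Another stretch with 1 base off the consensus lay after the start, at 143915371 to 143915380, beyond the bases shown. It was 139 bp from the wildtype summit.

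Around Dstn both libraries carried signal on either side. The nearest region upstream, assigned to Gm11686, had 5 in mutant and 24 in wildtype. The nearest downstream, assigned to Rrbp1, had 17 and 34.

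**Figure D2:**
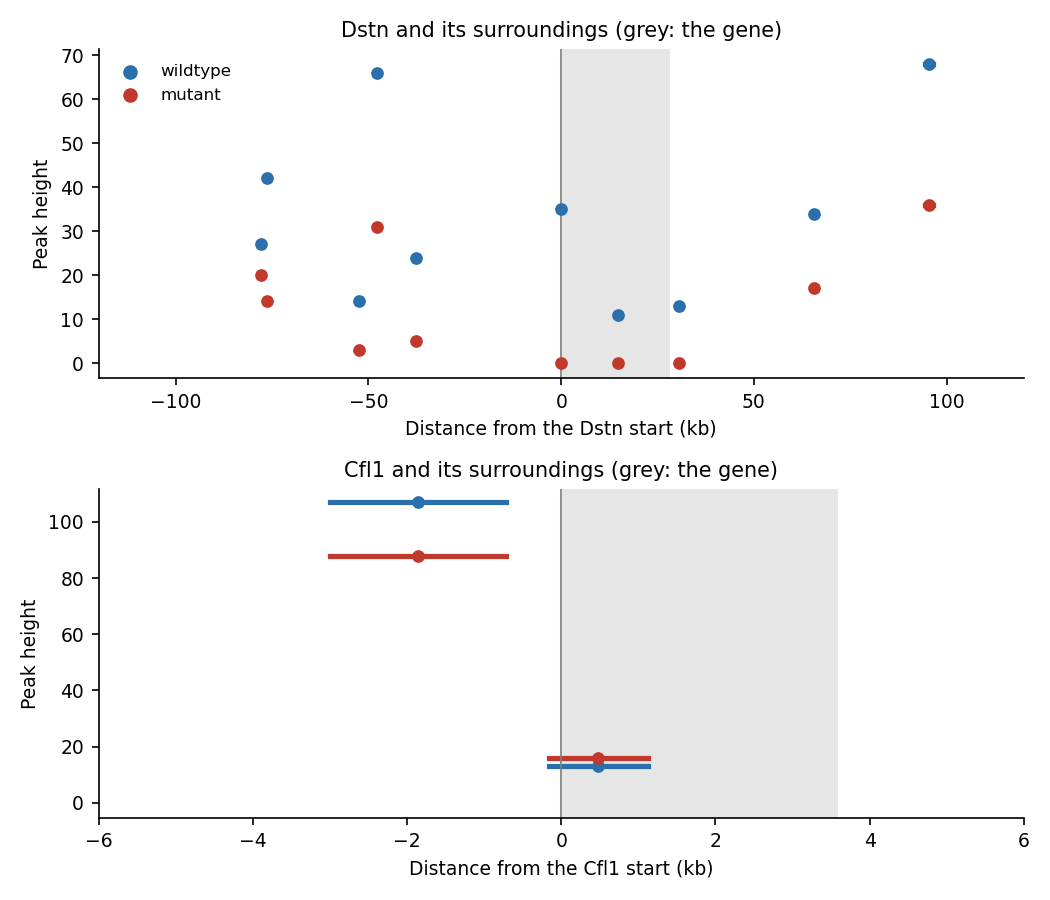
Peak height (y axis) of merged regions against distance in kb from the start of Dstn (top) and Cfl1 (bottom), with the gene in grey, wildtype in blue, mutant in red and bars for region width. The 3 mutant zeros stand at Dstn, with signal of 5 and 17 in the nearest regions on either side, and at Cfl1 the high region of 88 and 107 lies upstream of the low region of 16 and 13 at the start. The mutant height of 5 is below the lowest called height of 9.

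Cfl1 encodes cofilin-1, the main non-muscle paralog of destrin, on chromosome 19 (5490455 to 5494031, plus strand). Its upstream region (5487462 to 5489744) was the highest of all 23, at 88 in mutant and 107 in wildtype. The mutant height was at the 99.8th percentile and the wildtype height at the 98.0th. The log2 ratio of -0.28 was at the 91.3rd percentile of all regions. This region is also assigned to Mus81, a DNA repair nuclease gene, Efemp2 and Snx32, and its centre is 267 bp from the Mus81 start and 1852 bp from the Cfl1 start. The summit was at 5489152 in both libraries, and with 2282 bp the region was longer than 99.8% of all regions. Which gene the signal belongs to cannot be told from these files.

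The region over the Cfl1 start itself (5490293 to 5491577) was low, with 16 in mutant and 13 in wildtype, that is a log2 ratio of 0.28. With the average value in place of the peak the direction turned, to -0.40. Mutant was higher in peak height, yet the authors called an interval in wildtype only, as they did in 55 of all regions (0.173%). Among 923 other start regions within 10% of its wildtype height, the median mutant height was 10 and the 95th percentile 16. The Cfl1 start was therefore at the upper edge of start regions of its height.

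The 250 bases before the Cfl1 start, chr19:5490205-5490454 on the plus strand, are shown to set this promoter beside that of its paralog. The capitals mark a stretch with 1 base off the CArG consensus, outside the run of A and T.
Cfl1: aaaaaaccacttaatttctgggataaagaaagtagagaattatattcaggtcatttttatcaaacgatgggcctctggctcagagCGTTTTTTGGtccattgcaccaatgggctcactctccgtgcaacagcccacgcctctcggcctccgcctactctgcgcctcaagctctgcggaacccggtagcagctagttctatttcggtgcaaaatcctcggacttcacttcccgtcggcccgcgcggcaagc
The stretch spanned 5490290 to 5490299, across the edge of the start region, and the nearest wildtype summit (5490560) was 261 bp away. In mutant the nearest summit was that of the high upstream region, 1138 bp away.

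Cfl2, the cofilin of muscle, had no region and no row among the authors' genes. RefSeq places it on chromosome 12 (54858815 to 54862877). The nearest merged region was 31.76 kb from its start, at 54830407 to 54831117, with 27 in mutant and 49 in wildtype and no assigned gene. The 3 destrin and cofilin paralogs thus differed at their starts. Dstn had 0 and 35, Cfl1 had 16 and 13, and Cfl2 had no region. For the 0 at Dstn, missing or unmappable DNA cannot be told apart from lost binding.

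The LIM kinases phosphorylate cofilin and so inactivate it. At the start of Limk1 (chromosome 5, 134688426 to 134689252) heights were 23 in mutant and 23 in wildtype, that is a log2 ratio of 0 at the 95.9th percentile of all regions. This region is also assigned to Gm10369. Among 914 other start regions within 10% of this wildtype height the median mutant height was 13 and the 95th percentile 23. The other Limk1 region, past the gene's end, had 14 and 17 and a log2 ratio of -0.26. Both Limk1 regions were called in both libraries and were closer to equal than the median region.

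Limk2 had higher regions and a wider difference. Its start region (chromosome 11, 3408917 to 3409700), also assigned to Rnf185, had 36 in mutant and 80 in wildtype. The log2 ratio was -1.13, with the summit at 3409280 in both libraries. A region 22071 bp inside the gene had 26 and 83, a log2 ratio of -1.64. A region 61910 bp inside, also assigned to Pik3ip1, had 20 and 41, a log2 ratio of -1. At the start and at 61910 bp the ratios were near the median of all regions, at percentiles 48.1 and 57.3, and the one between them was at percentile 19.2. Limk1 and Limk2 start regions both held a CpG island.

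The slingshot phosphatases remove the phosphate and reactivate cofilin. Ssh1 (chromosome 5) had 3 regions, all deep inside the gene. The one 39035 bp past its start had 36 and 79, a log2 ratio of -1.11. The one 37007 bp past it had 26 and 68, a log2 ratio of -1.35. The last, 50963 bp past the start, had 10 and 16, a log2 ratio of -0.63, and was called in wildtype only. The first and second had wildtype heights at percentiles 95.2 and 92.2, although neither was near a gene start nor held a CpG island.

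Ssh2 (chromosome 11) is the longest member gene at 243795 bp and had 7 regions, the most of any member. The highest, 251597 bp past its start and beyond its end, had 24 in mutant and 61 in wildtype and is also assigned to Coro6 and Ankrd13b. A neighbouring region with the same assignments had 11 and 28. The region 1504 bp upstream of the start had 18 and 46, a log2 ratio of -1.31. Inside the gene, a region at 92322 bp had 22 and 39 and a region at 101432 bp had 9 and 17. The members' widest difference, Dstn aside, was 230363 bp into Ssh2, with 10 in mutant and 48 in wildtype, that is a log2 ratio of -2.16 at the 5.52nd percentile.

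A region 131844 bp into Ssh2 (77348094 to 77348445) went the other way, with 14 in mutant and 11 in wildtype, that is a log2 ratio of 0.32. It was called in mutant only, like 2.1% of all regions, and held a CpG island. RefSeq lists a further Ssh2 start at 77348280, and the mutant summit was at 77348288. By the authors' distances this region is deep inside the gene, whereas by RefSeq it lies over an internal start.

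Ssh3 (chromosome 19) had a single region, at 4257258 to 4258058, with heights of 39 and 92 and a log2 ratio of -1.22. Its wildtype height was the second highest among the members. The region is 3610 bp beyond the gene's end and 11514 bp from its start, and in RefSeq it overlaps the uncharacterised locus LOC102631992.

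Wdr1 encodes the actin-interacting protein that works with cofilin to disassemble filaments. Its region (chromosome 5, 38561042 to 38562156) was centred 4 bp upstream of the authors' start (38561595). RefSeq places the start at 38561699 instead, inside the same region. Heights were 38 and 77, with a log2 ratio of -1. After scaling both libraries to a common median the ratio was 0.051. The wildtype height was at percentile 94.8 of all regions, and at member starts only Limk2 was higher in wildtype. The 250 bases before its RefSeq start, chr5:38561700-38561949 on the minus strand, are shown because a CArG-like stretch, in capitals and with 1 base outside the consensus, lies near the summit.
Wdr1: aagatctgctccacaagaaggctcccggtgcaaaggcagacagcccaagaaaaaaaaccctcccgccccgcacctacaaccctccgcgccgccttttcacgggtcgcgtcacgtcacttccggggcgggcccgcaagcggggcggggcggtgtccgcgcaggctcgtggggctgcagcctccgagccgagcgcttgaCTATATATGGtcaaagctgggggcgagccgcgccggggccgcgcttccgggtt
The stretch spanned 38561743 to 38561752. The mutant summit (38561760) was 8 bp from it and the wildtype summit (38561728) 15 bp. Both gaps are below the 16 bp spacing of summit positions.

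Cap1, a cyclase-associated protein that recycles actin monomers, had a single region over its start (chromosome 4, 122885629 to 122886875), with heights of 16 and 35 and a log2 ratio of -1.08. Its wildtype height equals that of the Dstn start, so the mutant value of 16 stands beside 0 at Dstn. Its summits, at 122886176 and 122886496, were 320 bp apart, the widest shift of any member.

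The exact CArG consensus, a run of 6 A or T bases between CC and GG, which reads the same on both strands, was in the RefSeq promoter window (250 bases before to 50 after a start) of 0 of the 10 members. It was in 1.63% of all 32851 windows. With 1 mismatch allowed outside the run it was in 3 members, Wdr1, Limk2 and Cfl1, and in 3 of the 15 windows these 10 genes have, against 13.9% of all windows. With 1 mismatch at any place, a setting added after seeing the data, it was in 5 members and 6 of their 15 windows, against 21.1%. The 5 were those 3, Dstn and Ssh3. Each looser form includes the stricter, and overlapping matches were kept. Several members have more than 1 start and so more than 1 window, and the Ssh3 windows overlap. The Limk2 match lay in the window of an internal start that no region overlapped, and no region overlapped the Ssh3 windows. Of 674 windows with a wildtype summit and a match of the loosest form, 25.8% had them within 32 bp, as Dstn and Wdr1 did. The share that random placement would give was not computed. Matches were rarer in the 7636 windows that a region overlapped, at 1.26%, 8.66% and 15.1% from the strictest form to the loosest. Of the 15 member windows, 7 were overlapped in this way. A match is a description of the letters and not a binding site.

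Across the members, 20 regions had signal in both libraries. Of these, 12 were higher in wildtype by at least 2-fold, against 59% of all regions. In the other direction the count was 0, against 0.415%. The members' share is close to the background and is no result about them. Their median log2 ratio was -1.04 (95% interval -1.27 to -0.63, over regions), beside -1.10 for all regions. Regions at Limk2 (20 and 41) and Wdr1 (38 and 77) stood exactly at 2-fold. Higher in mutant at all were 2 of the 20, against 3.69% of all regions, and these were at the Cfl1 start and inside Ssh2. The log2 ratios spread from -2.16 to 0.32.

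**Figure D3:**
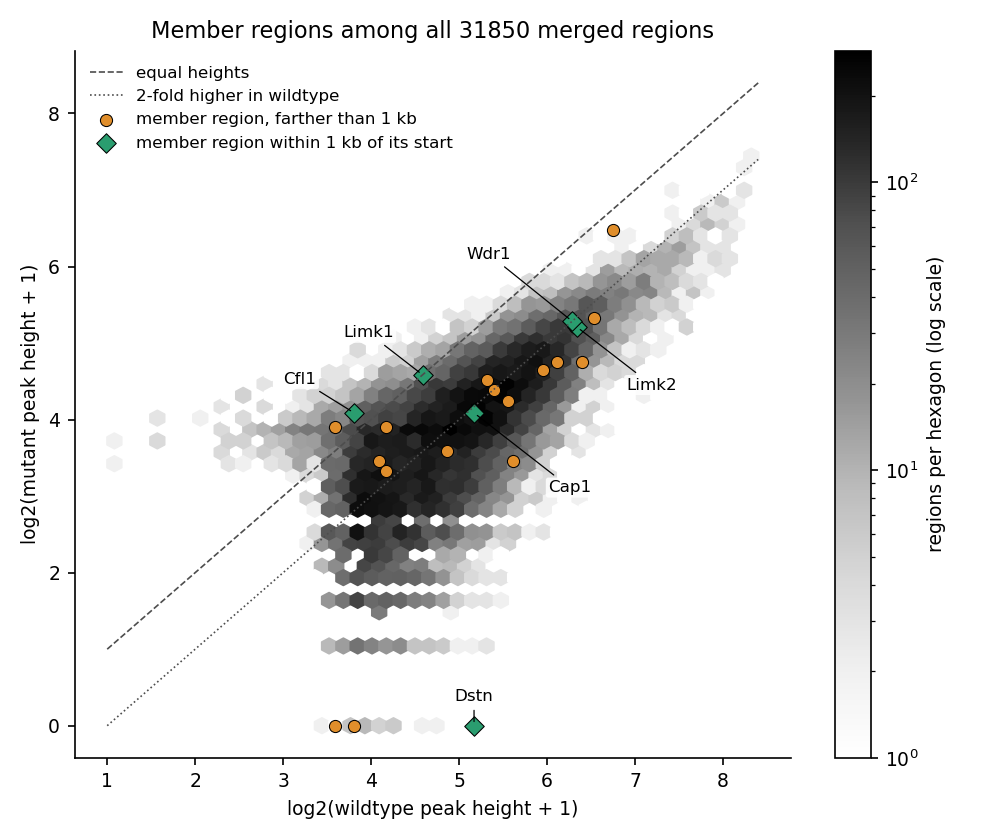
Mutant against wildtype peak height, both as log2(height + 1), for all 31850 regions (grey hexagons, darker for more regions), with member regions within 1 kb of the member's start as green diamonds and the others as orange circles. Wdr1, Limk2 and Cap1 lie near the 2-fold line with most regions, Limk1 is on the line of equal heights, Cfl1 is above it, and Dstn is at 0 in mutant.

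At gene starts the members fell apart. Limk2, Cap1 and Wdr1 were at -1.13, -1.08 and -1, whereas Limk1 and Cfl1 were at 0 and 0.28. All start regions of the series had a median of -0.81, and 39.6% were at least 2-fold higher in wildtype, against 3 of 5 here. Among start regions within 10% of their wildtype height, median mutant heights were 32 beside 36 at Limk2, 31 beside 38 at Wdr1 and 18 beside 16 at Cap1. These 3 were thus ordinary for their height. All 6 member start regions held a CpG island, as did 84.6% of all start regions.

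**Figure D4:**
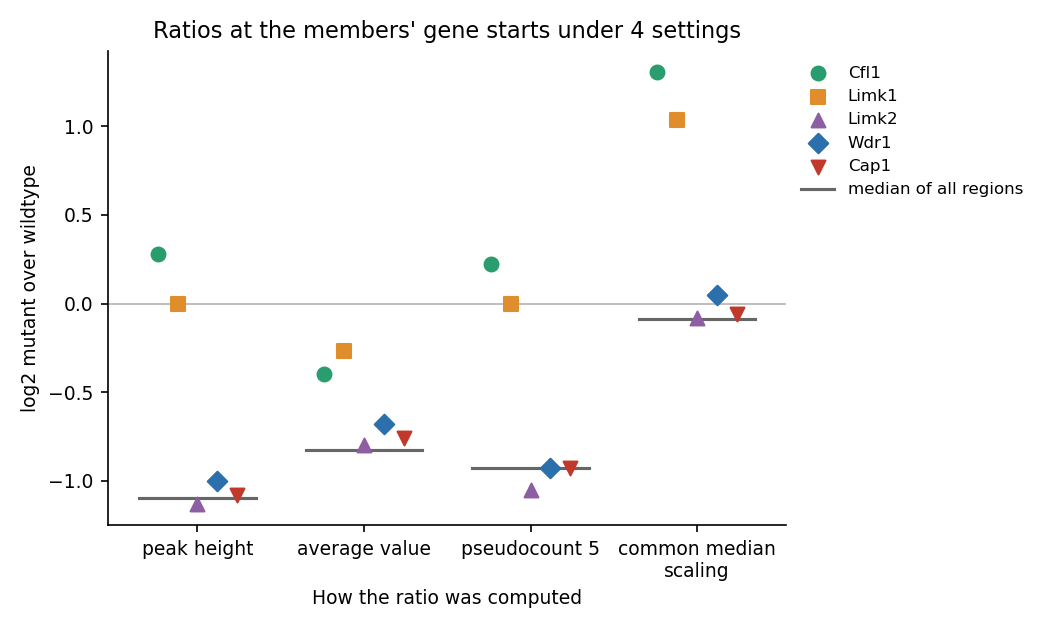
Log2 ratio of mutant over wildtype (y axis) at the start regions of 5 members under 4 ways of computing it (x axis), with the median of all regions as a grey bar. Cfl1 and Limk1 lie above the median of all regions under each setting, whereas Limk2, Wdr1 and Cap1 stay near it; Cfl1 turns from 0.28 to -0.40 with the average value.

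How the libraries were scaled was not given in the sources used here, so a common scale was also tried, in which mutant heights were multiplied by 2.1. The median of all regions then moved from -1.10 to -0.088. With the average value, 2 member regions passed 2-fold in favour of wildtype, against 35.4% of all regions. On the common scale 1 member region was at least 2-fold higher in wildtype, against 9.19% of all regions, the one 230363 bp into Ssh2. A further 3 were at least 2-fold higher in mutant, against 4.59%. They were the Cfl1 start at 1.31, the Limk1 start at 1.04 and the mutant-only region of Ssh2 at 1.34. All 3 had wildtype heights of 11 to 23, below the middle of wildtype heights (28).

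Both libraries had an interval at 14 of the 23 regions, against 48.9% of all regions. The summits of those 14 were 32 bp apart at the median, and 85.7% were within 32 bp. Over 15365 regions with a summit in each library these values were 32 bp and 77.4%. Cfl1 upstream, the Limk2 start, the far Limk1 region and an inner Ssh2 region had summits at the same position in both libraries.

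Around the members, 28 further genes of the pathway were looked at, from the kinases above LIM kinase to actin and other cofilin-like proteins. Intervals were assigned to 24 of the 28 in wildtype (59.9% of reference genes) and 22 in mutant (45.1%). A region within 1 kb of the start was present at 16. Of reference genes, 28.8% had an interval that near in wildtype and 18.8% in mutant. Where a gene had several start regions, the one with the highest mean height was counted. Of these 16, 2 were higher in wildtype by at least 2-fold (39.6% of all start regions) and 0 in mutant by that margin (0.415% of all regions). Another 2 were higher in mutant by less, beside 3.69% of all regions higher in mutant at all. Shares higher in mutant among start regions alone were not counted. The median ratio of start regions, -0.81, was nearer to equal than the -1.10 of all regions. The median log2 ratio was -0.65. Over all 61 regions assigned to the list, 18 passed 2-fold in favour of wildtype (59% of all regions) and 3 in favour of mutant (0.415%). These 3 were a region 1600 bp upstream of Actg1 (29 and 14), one 8986 bp upstream of Cdc42bpb (19 and 8) and one 27494 bp past the start of Cotl1 (27 and 12). The highest start region was that of Actb, the beta-actin gene, at 94 and 153. Coro1c, a coronin gene, followed with 60 and 110, and Gmfg, of the cofilin-like fold, with 52 and 111. Tesk1, another kinase of cofilin, had 54 and 97. Pak4, a kinase that activates LIM kinase, had 42 and 55, and Twf1, a twinfilin, 32 and 48. The log2 ratios of these 6 ran from -1.08 at Gmfg to -0.38 at Pak4, and all 6 were higher in wildtype. Among the lower start regions, 3 named after their values were seen were near equal, like Limk1, or higher in mutant, like Cfl1. Gmfb, of the cofilin-like fold, had 18 and 19, a log2 ratio of -0.074. Actg1, the gamma-actin gene, had 31 and 22, a log2 ratio of 0.48. Rock2, a kinase that activates LIM kinase, had 14 and 10 in a region centred 431 bp upstream, a log2 ratio of 0.45. Another Rock2 region, 36 bp past the start, went the other way, with 8 and 12 and a log2 ratio of -0.53. It was called in wildtype only. As these 3 were picked by their values, they show only that such start regions occur elsewhere in the pathway, and the Rock2 start regions differed in direction. How common near-equal start regions are in the whole series was not counted.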

How the data were processed

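SRF ChIP-seq libraries of whole cornea (1 mutant, 1 wildtype) were compared. Per the submitters' processing notes, BWA and the mm10 build were used. How intervals were called and whether libraries were scaled was not given in the sources used here. Signal values were deposited by the authors per interval and per merged region, the peak and the average per the file headers, and a mean peak per gene, which equalled the mean of the region heights for all 9 members listed. Their 0 or 1 calls and distances to gene starts were used as deposited. Whether listed region starts count from 0 is not stated. Of 16697 gene IDs, 16229 matched RefSeq GRCm38.p6, the build of mm10.

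The members and gene lists were chosen with earlier results of these data known. Named genes are all members, the 6 pathway genes with the highest start regions, and the regions most like the Dstn and Cfl1 starts. Further pathway genes (Gmfb, Actg1, Rock2, Cdc42bpb and Cotl1) were named by their values. Ratios used a pseudocount of 1 and a rule of 2-fold; regions listed at 0 got no ratio. Intervals of medians are order-statistic and cover regions, not animals. The ratio and motif searches were tested on simulated data. Alternatives were the average value, a pseudocount of 5, common scaling and other region sets. Software was Python 3.11.15, pandas 2.3.3, scipy 1.17.1, numpy 2.4.6 and, for plots, matplotlib 3.10.9.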

Additional observations from a re-analysis of the deposited data

How the results depend on the processing

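No paired analysis was possible because there was only 1 library of each genotype. Member regions past 2-fold in favour of wildtype numbered 12 as reported, 2 with the average value (35.4% of all regions), 1 with common scaling, and 3 of 5 within 1 kb of the start. Taking only the highest region of each member, added after seeing the data, gave 6 of 8. With common scaling 3 were at least 2-fold higher in mutant, and the median was -0.012. With fewer regions the smaller counts follow from the construction. So does the shift under common scaling, which multiplies every mutant height by 2.1 and moves the median of all regions from -1.10 to -0.088. For the other settings the cause was not tested. The Cfl1 start turned to -0.40 with the average value, and the Wdr1 start to 0.051 with scaling. Within 1 kb, 4 members had an interval in mutant. CArG matches rose from 0 members to 3 and 5 as mismatches were allowed. Leaving out the 7 Ssh2 regions, also added later, gave 8 of 13 and a median of -1. What the unknown depth allows to be seen at low regions such as the Cfl1 start could not be computed.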

Other observations

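Outside Dstn, 35 regions were listed at 0 in mutant, 18 of them with no assigned gene, and their median wildtype height was 15. The highest was on chromosome 17 (83000488 to 83000969), with 41 in wildtype and no assigned gene, the only one of the 35 above the 35 of the Dstn start. The next had 32 on chromosome 18 and 25 on chromosome 9, both with no assigned gene, 25 on chromosome 12 inside Hdac9, a histone deacetylase gene, and 24 elsewhere on chromosome 12. Of start regions, 3 were at 0 in mutant, Dstn included.

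In both heights, 11 other start regions equalled the Cfl1 start (16 and 13), over these 2 libraries alone. The first 5 in genome order were at Ptp4a1, Arl4c, Id2, Pik3r1 and Hn1l.

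Windows with the exact CArG consensus and a wildtype summit numbered 57, and in 57.9% of them the summit was within 32 bp of the match. The share was 25.6% of 379 windows with 1 mismatch outside the run of A and T. No member window holds the exact form, so this describes the series and not the members.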
